A study of Mus musculus with 2 samples.

Results

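Members of the aldo-keto reductase superfamily that the adrenal cortex uses, or that lie beside such genes in the genome, were followed through the gene and transcript tables of 1 mouse adrenal sample. The 10 genes were taken by symbol: Akr1b3, Akr1b7, Akr1b8 and Akr1b10 of the Akr1b subfamily, and Akr1c6, Akr1c12, Akr1c13, Akr1c14, Akr1c18 and Akr1c20 of the Akr1c subfamily. All 10 were found among 43346 Ensembl genes, with 28 transcripts between them. The donor was a C57BL/6J female, adult at 10 weeks of age, and the tissue was its adrenal gland, with no treatment, allele or transgene given in the labels. Polyadenylated RNA of this 1 biological sample was sequenced as 2 technical replicate libraries, and replicate 2 was made later than replicate 1. Every difference reported here is therefore a difference between libraries of the same biological sample, and no error covers differences between animals. The rounded expected counts, which are estimated fragment numbers per gene, summed to 28267651 in replicate 1 and 17376660 in replicate 2. Mitochondrial genes and their nuclear copies took 53.1% of these counts in replicate 1 and 15.3% in replicate 2, so TPM (a level per transcript length with 1 fixed sum per library) was also rescaled over the remaining nuclear genes.

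Aldo-keto reductases are soluble enzymes that use NADPH to reduce aldehydes and ketones, including sugars, lipid aldehydes, prostaglandins and steroids. The adrenal cortex makes corticosterone from cholesterol in the zona fasciculata, and cleavage of the cholesterol side chain releases isocaproaldehyde, a reactive aldehyde that Akr1b7 reduces. Akr1b7 is known as an ACTH-dependent gene of the fasciculata. Akr1c18 encodes 20-alpha-hydroxysteroid dehydrogenase, which inactivates progesterone, and marks the X-zone, a transient inner layer of the mouse cortex.

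The members lie in 2 clusters. On chromosome 6 of GRCm38 the Akr1b cluster spanned chr6:34302434-34423142, 120.7 kb with 6 annotated genes, of which 4 are members and the other two are the pseudogenes Gm13858 and Gm13859. Akr1b3 lies at chr6:34302434-34317478 on the minus strand. Akr1b8 (chr6:34354119-34368463), Akr1b10 (chr6:34384218-34396950) and Akr1b7 (chr6:34412334-34423142) follow on the plus strand. On chromosome 13 the Akr1c members spanned chr13:4049011-4523345, 474.3 kb with 15 annotated genes. In order, these members are Akr1c14 (chr13:4049011-4090688, plus), Akr1c18 (chr13:4132615-4150654, minus), Akr1c13 (chr13:4191150-4205596, plus), Akr1c12 (chr13:4268176-4279433, minus), Akr1c6 (chr13:4434306-4457877, plus) and Akr1c20 (chr13:4486849-4523345, minus). The remaining protein-coding gene there, Akr1c19, had 3 and 2 counts in replicates 1 and 2 (0.11 and 0.22 TPM). Gm13859 had 2 counts in each library, and Gm13858 and Marcksl1-ps4 had 0. Another 7 annotated genes of the chromosome 13 interval (Gm47904, Gm47905, Gm47925, Gm2123, Gm9973, Gm47951 and Gm48010) are named only by the newer annotation and had no row to measure. Neighbours in the chromosome 13 cluster could differ widely in level. Akr1c18, at 529 and 912 TPM, lies between Akr1c14, below 1 TPM, and Akr1c13, at 16.7 and 35.4 TPM. Others did not: Akr1c6 and Akr1c20, side by side, were both below 0.5 TPM in both libraries.

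**Figure D1:**
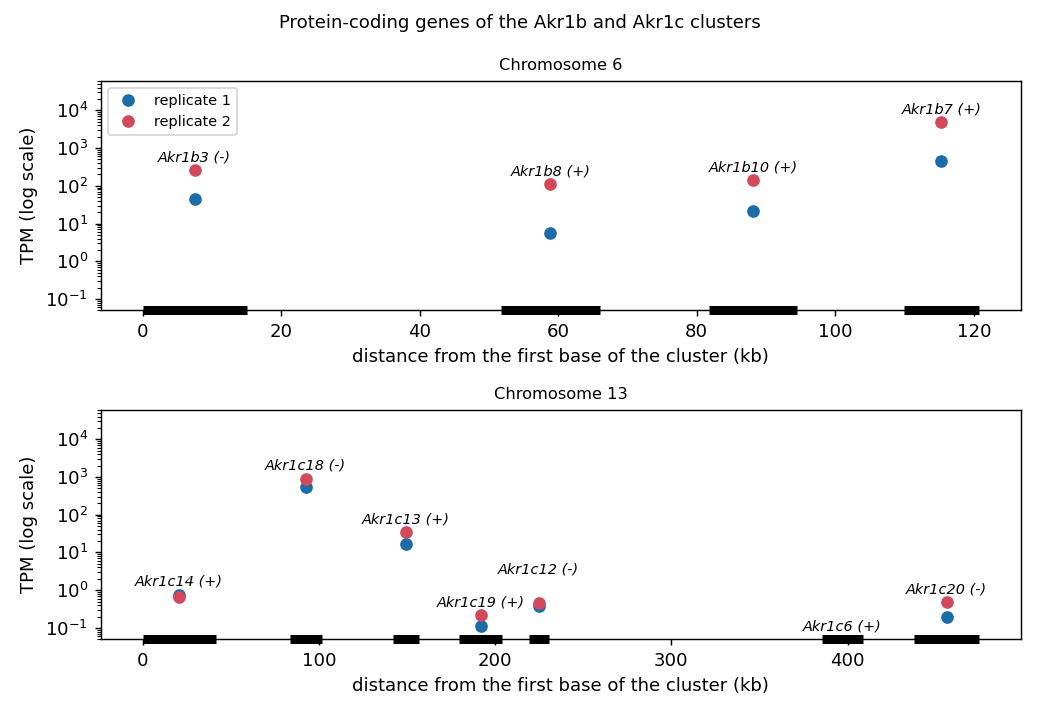
TPM (log scale) of the protein-coding genes of the chromosome 6 and chromosome 13 clusters against distance in kb from the first base of each cluster; points are the 2 libraries and bars mark the extent of each gene. Akr1b7, at the far end of the chromosome 6 cluster, and Akr1c18 stand highest in their clusters in both libraries.

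Coding sequences were compared because similar genes can share reads. Over the 6 pairs within Akr1b, identity ran from 71.8% to 89.2% with a median of 78.9%, and over the 15 pairs within Akr1c from 73.0% to 96.2% with a median of 74.3%. The 24 pairs of an Akr1b with an Akr1c gene lay between 56.0% and 57.8%. Akr1b3 was the most distant of the Akr1b genes, with Akr1b7 its closest relative at 73.0%. Akr1b7 and Akr1b10 were the closest Akr1b pair at 89.2%, with a longest identical run of 59 bases, and Akr1b8 was 85.1% identical to Akr1b10. Akr1c12 and Akr1c13 were the closest pair of all at 96.2%, with an identical run of 228 bases. Akr1c6 and Akr1c20 shared 92.3%. Akr1c18 had no close copy: its nearest coding sequence was Akr1cl, a gene outside the listed members, at 77.5%.

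**Figure D2:**
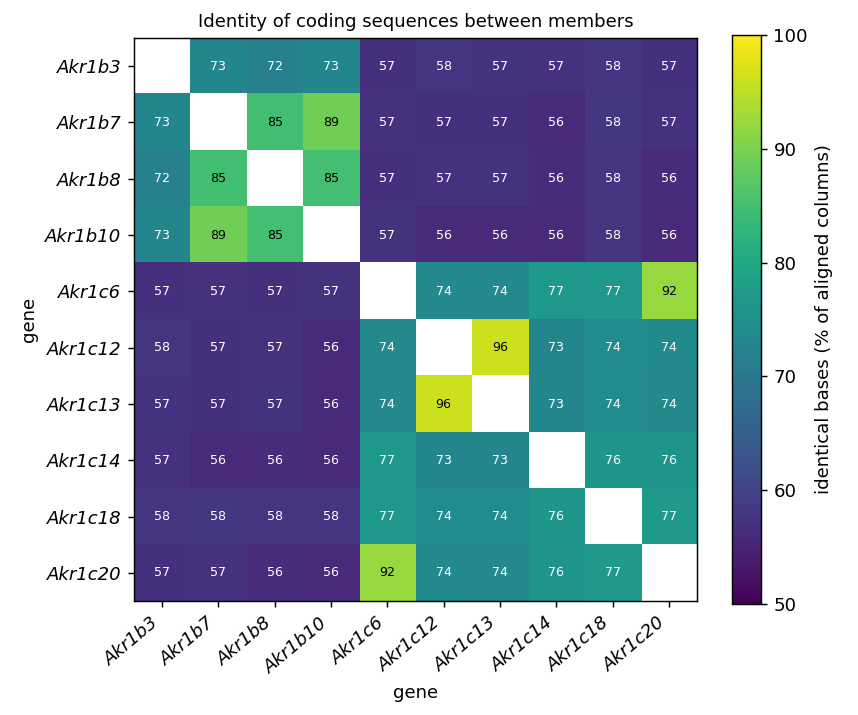
Percent identity of coding sequences for every pair of the 10 members, genes on both axes and identity as colour. The Akr1c12 and Akr1c13 square (96.2%) is the closest pair, and the 24 squares between subfamilies sit between 56.0% and 57.8%.

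The closest pair is shown at its least alike stretch, where the genes differ only base by base. No other gap-free stretch of 100 coding bases within a single exon of both genes holds more differences. Over the whole coding sequence the pair is 96.2% identical, so this stretch does not represent the pair as a whole. Both lines give the same 100 coding bases, positions 253 to 352 of the coding sequence in coding exon 3 of 9, read 5′ to 3′ on the coding strand of GRCm38, with the 8 differing bases in capitals. Akr1c12 lies at chr13:4275741-4275840 on the minus strand and Akr1c13 at chr13:4194677-4194776 on the plus strand.
Akr1c12: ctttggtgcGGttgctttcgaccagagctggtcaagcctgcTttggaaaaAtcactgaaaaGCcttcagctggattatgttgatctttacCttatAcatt
Akr1c13: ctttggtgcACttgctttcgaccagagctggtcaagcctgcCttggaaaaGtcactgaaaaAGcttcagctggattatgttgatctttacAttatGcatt
The files give a posterior SD for each gene's count, which is above 0 where the assignment of reads was uncertain. Over the members it was above 0 only for Akr1b3 (0.93 and 2.92 counts in replicates 1 and 2) and for Akr1c12 and Akr1c13 (1.09 and 0.63 counts for each). For Akr1c12, with 14 and 6 rounded counts, it was small beside the count. Akr1b3 had 4 other genes with a transcript at least 95% identical over at least 50% of the Akr1b3 transcript (Gm38056, Gm6644, Gm6736 and Gm12138, singled out after their values were seen), and no other member had such a match. The whole transcripts of Akr1c12 and Akr1c13, at 94.5% identity, lay just under that limit. The 4 copies of Akr1b3 held 0 to 3 counts in replicate 1 and 0 to 18 in replicate 2, against 1015 and 3931 for Akr1b3. In the annotation Akr1b3 overlaps the antisense gene Gm14546, Akr1b7 the opposite-strand pseudogene Gm13857, and Akr1c14 the same-strand pseudogene Gm18857. Whether counting used strand is not given in the sources used here, so reads of these overlaps cannot be told apart.

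Promoter windows of 250 bases before the RefSeq start (GRCm38.p6) were found for 8 of 10 members. They are shown for Akr1b7 and Akr1c18, the members known as fasciculata and X-zone genes, and for Akr1b10, the closest relative of Akr1b7. Capitals mark a match to AAGGTCA on either strand, the letters of an element bound by SF-1 (Nr5a1), the nuclear receptor that drives adrenal steroidogenic genes. The windows are chr6:34412112-34412361 (plus) for Akr1b7, chr6:34383997-34384246 (plus) for Akr1b10 and chr13:4150647-4150896 (minus) for Akr1c18. By the gene coordinates given above, these genes start at 34412334, 34384218 and 4150654 in that order. The last bases of each window therefore lie within the gene as annotated there.
Akr1b7: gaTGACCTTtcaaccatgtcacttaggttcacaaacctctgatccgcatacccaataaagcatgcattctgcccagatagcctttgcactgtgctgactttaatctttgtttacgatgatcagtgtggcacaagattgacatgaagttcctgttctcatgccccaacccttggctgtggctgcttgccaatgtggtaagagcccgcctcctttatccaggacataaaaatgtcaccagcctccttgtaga
Akr1b10: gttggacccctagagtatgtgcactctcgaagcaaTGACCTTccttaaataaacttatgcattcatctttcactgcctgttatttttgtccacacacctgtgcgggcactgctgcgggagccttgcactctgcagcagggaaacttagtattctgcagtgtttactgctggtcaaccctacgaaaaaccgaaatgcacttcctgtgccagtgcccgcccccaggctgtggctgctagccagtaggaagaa
Akr1c18: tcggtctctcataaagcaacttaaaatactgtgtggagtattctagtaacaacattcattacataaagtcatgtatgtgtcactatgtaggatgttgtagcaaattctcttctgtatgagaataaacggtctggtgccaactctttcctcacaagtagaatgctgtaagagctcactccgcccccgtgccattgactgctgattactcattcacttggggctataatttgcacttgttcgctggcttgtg
Akr1b7 held the match on the reverse strand starting at position -248 relative to the start, and Akr1b10 held it on the reverse strand at -215. The other 6 windows, that of Akr1c18 included, did not hold these letters. Over all 32851 promoter windows of this length, 4.08% did. TATAAA on either strand was in the windows of Akr1b8 and Akr1c6 and in 12.4% of all windows. TTGCGCAA, the C/EBP palindrome, TGACGTCA, the cyclic AMP element, and CAAGGTC, which overlaps AAGGTCA by 6 letters, were in 0 of 8 member windows and in 0.164%, 1.55% and 3.32% of all windows.

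Of the 10 genes, 6 reached 1 TPM in both libraries: Akr1b3, Akr1b7, Akr1b8, Akr1b10, Akr1c13 and Akr1c18. All 4 Akr1b genes were among them, but only 2 of the 6 Akr1c genes. The members summed to 1080 TPM in replicate 1 and 6383 TPM in replicate 2. Akr1b7 and Akr1c18 together made up most of each sum, Akr1b7 with 42.6% and 77.1% and Akr1c18 with 49.0% and 14.3% in replicates 1 and 2. Akr1b genes held 49.4% of the sum in replicate 1 and 85.1% in replicate 2. Akr1b3 held the third place and Akr1b10 the fourth in both libraries, and Akr1c6 the last. The libraries exchanged the order of Akr1b7 and Akr1c18, of Akr1b8 and Akr1c13, and of Akr1c12 and Akr1c20. In the order of mean TPM, the ranges over the 2 libraries overlapped between Akr1b7 and Akr1c18, between Akr1b3 and Akr1b10, between Akr1b10 and Akr1b8, between Akr1b8 and Akr1c13, and between Akr1c12 and Akr1c20. They did not overlap between Akr1c18 and Akr1b3, between Akr1c13 and Akr1c14, or between Akr1c14 and Akr1c12.

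**Figure D3:**
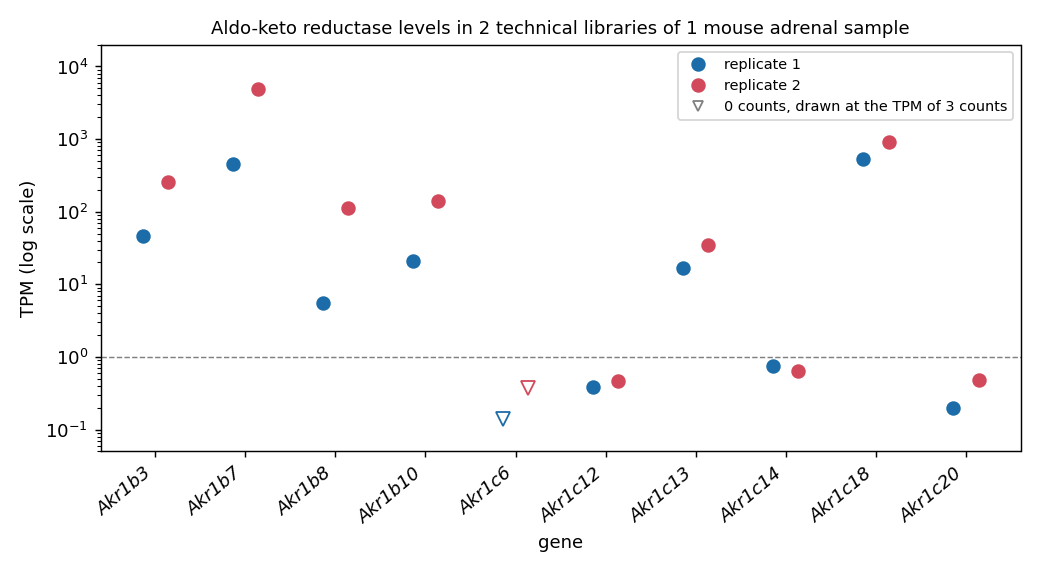
Deposited TPM (log scale) of the 10 members in replicate 1 and replicate 2; each point is 1 library, and the open triangle for Akr1c6 marks 0 counts, drawn at the TPM that 3 counts would give. Akr1b7 and Akr1c18 lie from 460 TPM upwards, and Akr1c6, Akr1c12, Akr1c14 and Akr1c20 lie below 1 TPM in both libraries.

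Akr1b7 (ENSMUSG00000052131.7) had 16716 counts in replicate 1 and 67027 in replicate 2, or 460 and 4923 TPM (2692 ± 3155, SD, n = 2 technical libraries). It was the 23rd most abundant nuclear gene in replicate 1 and the 7th in replicate 2. Its level is thus among the highest in the gland in both libraries, with the higher value in replicate 2. These are levels of bulk tissue, in which the number of cells of a zone and the RNA per cell cannot be told apart. Over nuclear genes alone the levels were 2632 and 7987 TPM, a ratio of 3.03, against a ratio of 10.7 in deposited TPM. Akr1c18 (ENSMUSG00000021214.9) had 17863 and 11515 counts, or 529 and 912 TPM (721 ± 271). Its deposited TPM was higher in replicate 2, but its nuclear TPM was lower there, at 3023 and 1480, and its rank among nuclear genes moved from 16 to 49. The direction for Akr1c18 therefore depends on whether mitochondrial transcripts are part of the sum. The TPM of Akr1b7 was 0.871 of that of Akr1c18 in replicate 1 and 5.40 times it in replicate 2 (mean log2 ratio 1.12 ± 1.86, SD, n = 2), so these libraries do not fix which of the 2 genes is more abundant. The deposited intervals of the posterior mean TPM ran from 507 to 522 and from 833 to 864 for Akr1c18. They ran from 441 to 454 and from 4544 to 4618 for Akr1b7. For both genes they lay below the deposited TPM of the same library. Each interval describes 1 library, and each was far narrower than the gap between libraries.

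Akr1b3 (ENSMUSG00000001642.14) is mouse aldose reductase, which turns glucose into sorbitol in the first step of the polyol pathway. It had 1015 and 3931 counts, or 46.0 and 258 TPM (152 ± 150, n = 2). Over nuclear genes this was 263 and 419 TPM, with ranks of 745 and 379. Akr1b7 stood 10.0 times above Akr1b3 in replicate 1 and 19.1 times in replicate 2 (mean log2 TPM ratio 3.79 ± 0.66), so the fasciculata reductase exceeded aldose reductase in both libraries. The gene length behind the TPM of Akr1b3 was 853 bases in replicate 1 and 1410 in replicate 2, against 1281 in both for Akr1b7. In counts scaled for library size, replicate 2 was 2.97 times replicate 1 for Akr1b7 and 2.87 times for Akr1b3. The size of their TPM ratio therefore depends on the transcript shares given to Akr1b3. Akr1b10 (ENSMUSG00000061758.9) had 795 and 2038 counts, or 21.1 and 140 TPM (80.5 ± 84.1). Akr1b8 (ENSMUSG00000029762.6), first described as a gene induced by fibroblast growth factor, had 217 and 1643 counts, or 5.58 and 113 TPM (59.1 ± 75.8). Akr1b8 stood below Akr1b10 in both libraries, at 0.265 and 0.805 of its TPM. Akr1b7 was 82.5 and 43.7 times Akr1b8 (mean log2 ratio 5.91 ± 0.65), which is the one Akr1b7 ratio here with the smaller value in replicate 2.

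Akr1c13 (ENSMUSG00000021213.7) was the only Akr1c member besides Akr1c18 above 1 TPM. It had 474 and 412 counts, or 16.7 and 35.4 TPM (26.0 ± 13.2), and 95.3 and 57.4 TPM over nuclear genes. Its near copy Akr1c12 (ENSMUSG00000021211.3) had 14 and 6 counts, or 0.39 and 0.47 TPM. Akr1c12 thus stood at 0.0234 and 0.0133 of the TPM of Akr1c13, and the pair was unequal in both libraries despite its sequence identity (mean log2 ratio -5.83 ± 0.58). Akr1c14 (ENSMUSG00000033715.10) encodes a 3-alpha-hydroxysteroid dehydrogenase that acts on dihydroprogesterone and dihydrotestosterone. It had 57 and 18 counts, or 0.76 and 0.64 TPM, and was the 1 member with a lower deposited TPM in replicate 2. Against Akr1c18, the progesterone-inactivating enzyme, its TPM ratio was 0.00144 and 0.000702. Akr1c20 (ENSMUSG00000054757.8) had 7 and 6 counts, or 0.20 and 0.48 TPM. Akr1c6 (ENSMUSG00000021210.11), a 17-beta-hydroxysteroid dehydrogenase of mouse liver, had 0 counts in both libraries, which allows up to 0.140 TPM in replicate 1 and 0.375 TPM in replicate 2 (the level of 3 counts, counting error only). Its deposited posterior mean TPM was nevertheless 0.24 and 0.63, with upper bounds of 0.594 and 1.52.

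The libraries were then compared gene by gene on TMM-scaled counts, with a two-sided exact binomial test on each gene's rounded counts in the 2 libraries. A gene entered the test if its counts added up to 20 or more, and it was called where the Benjamini-Hochberg adjusted p fell under 0.05 and the libraries differed 2-fold or more. The test holds counting error only and compares these libraries. Of the 10 members 8 were tested, Akr1c6 and Akr1c20 being too low. Called higher in replicate 2 were 3 members (Akr1b3, Akr1b7 and Akr1b8), in a background of 36.4% of 14358 genes, and called lower were 3 (Akr1c12, Akr1c14 and Akr1c18), in a background of 27.8%. These shares are near the background, so the counts alone do not set the members apart. The members' median log2 ratio of replicate 2 to replicate 1 was 0.14, against 0.10 over all genes tested. The calls divided by subfamily: all 4 Akr1b genes had a positive log2 ratio (median 1.54) and all 4 tested Akr1c genes a negative one (median -1.33).

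By fold, Akr1b8 was 5.60 times higher in replicate 2 (95% interval 4.86 to 6.49), Akr1b7 2.97 times (2.92 to 3.02) and Akr1b3 2.87 times (2.68 to 3.08). Akr1b10, at 1.90 times (1.75 to 2.06), did not reach the fold minimum. On the Akr1c side Akr1c14 was at 0.238 of its replicate 1 level (0.130 to 0.403), Akr1c12 at 0.332 (0.09996 to 0.879) and Akr1c18 at 0.477 (0.466 to 0.489). Akr1c13, at 0.644 (0.563 to 0.736), also missed the minimum. The Akr1c12 call was the least firm: its summed count of 20 sat exactly at the filter, and its exact binomial test gave an adjusted p of 0.0284.

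GC content moved with these ratios. The Akr1b members had 48.0% to 52.1% GC and the Akr1c members 39.2% to 45.0%, against a median of 49.985% over all genes tested, and over all genes the log2 ratio followed GC along a lowess trend. The trend at a gene's GC content was 0.98 for Akr1b3 and 0.63 for Akr1b8, but -0.17 for Akr1b7 and -0.38 for Akr1b10. It was -1.08 for Akr1c13, -1.16 for Akr1c12, -1.30 for Akr1c18 and -2.02 for Akr1c14. With the trend removed, 3 members were called higher (Akr1b7, Akr1b8 and Akr1b10), in a background of 12.9% of 14317 genes, and 0 were called lower, in a background of 11.8%. All 3 lower calls were lost: Akr1c12 came to -0.43 (exact binomial adjusted p = 0.729), Akr1c14 to -0.04 and Akr1c18 to 0.24 on the log2 scale. Akr1b7 and Akr1b8 kept their calls at log2 ratios of 1.74 and 1.86, Akr1b10 passed at 1.30, and Akr1b3 came to 0.54 and was not called. With a trend along gene length removed instead, Akr1b7 came to 0.34 and Akr1b3 to 0.15, and neither was called. Akr1b8 was the 1 member then still called higher, at 1.33, while Akr1c12, Akr1c13, Akr1c14 and Akr1c18 were called lower. With the GC and length trends both removed, Akr1b7 at 1.40 and Akr1b8 at 1.56 were called higher. Akr1b3 at 0.13 and Akr1b10 at 0.99 were then not called, and 0 members were called lower. The median of the 4 Akr1b genes was 1.52 after the GC trend was removed and that of the 4 tested Akr1c genes 0.10. For all 8 tested members the median was 0.49, against -0.03 over all genes. What made the libraries differ along GC content was not tested.

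**Figure D4:**
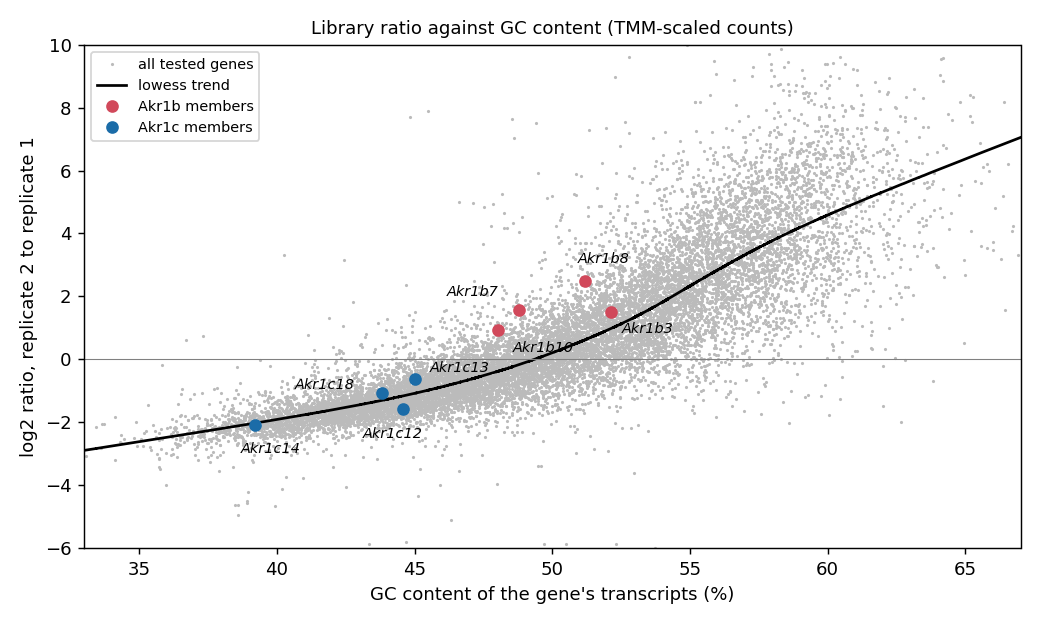
Log2 ratio of replicate 2 to replicate 1 (TMM-scaled counts) against the GC content in percent of each gene's transcripts; grey points are all tested genes, the black line is the lowess trend and coloured points are the tested members. The Akr1c points (GC from 39.2% to 45.0%) lie below 0 near the trend, and all 4 Akr1b points lie above the trend.

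Transcript shares (percent of a gene's TPM, as deposited) showed where reads within a gene were placed. Akr1b7 and Akr1c12 have 1 transcript each, and Akr1b8-201 and Akr1c14-201 had 100% of their genes in both libraries. For Akr1c14, on 57 and 18 counts, the deposited posterior share of Akr1c14-201 was only 75.9% and 46.9%. Akr1b3 differed most between libraries. Its full-length protein-coding transcript Akr1b3-201, with 10 exons, had 27.1% of the gene in replicate 1 (503 counts) and 99.8% in replicate 2 (3910 counts). The retained-intron transcript Akr1b3-204, 554 bases over exons 9 and 10, had 51.4% in replicate 1 (287 counts) and 0% in replicate 2. The retained-intron transcript Akr1b3-202, which touches exons 1 to 6, had 21.4% (214 counts) and 0%. By deposited share, the leading Akr1b3 transcript was therefore a short one at the 3′ end in replicate 1 and the coding transcript in replicate 2. Of the 554 bases of Akr1b3-204, 489 lie in exons of Akr1b3-201, as do 677 of the 845 bases of Akr1b3-202. Reads within shared bases do not tell these transcripts apart, and whether the transcripts themselves differed between libraries was not tested. The gene length given in the tables, an average over its transcripts by share, was 853 bases in replicate 1 and 1410 in replicate 2. On the counts of Akr1b3-201 alone the gap between libraries was wider than on the gene. The GC content was 48.2% for Akr1b3-204, 53.7% for Akr1b3-202 and 52.5% for Akr1b3-201.

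By deposited share, the leading transcript of Akr1c13 also differed between libraries, and 793 of the 934 bases of Akr1c13-202 lie in exons of Akr1c13-201. The coding transcript Akr1c13-201 had 37.8% in replicate 1 (217 counts) and 65.1% in replicate 2 (297 counts). Akr1c13-202, annotated for nonsense-mediated decay and touching exons 1 to 7, had 62.2% (257 counts) and 35.0% (115 counts). In counts not scaled for library size, the coding transcript had more in replicate 2 and the gene as a whole had fewer. In TPM both were higher in replicate 2, at 6.31 and 22.99 for Akr1c13-201 and 16.7 and 35.4 for the gene. Akr1b10-201 led its gene with 86.2% and 94.9%, and its single-exon retained-intron transcript Akr1b10-206 had 5.67% and 0.81%. Akr1c18-201 held 98.2% and 94.7%, the remainder being Akr1c18-202, which has 8 exons instead of 9. Akr1c20-202 held 82.3% and 100%, and Akr1c20-201 17.7% and 0%, on 7 and 6 counts of the gene. In Akr1b3, Akr1b10 and Akr1c13 the full-length coding transcript had its larger share in replicate 2, and in Akr1c18 in replicate 1. Outside the members, Akr1a1 also differed between libraries, with Akr1a1-201 at 36.5% and 99.4% and the 412-base Akr1a1-202, at the 3′ end of the gene, at 62.7% and 0.27%. Larger in replicate 2 as well were the shares of Akr7a5-201 (31.9% and 98.8%, on 4 and 577 counts) and Akr1cl-201 (78.1% and 87.6%). So were those of Kcnab1-201 (0% and 94.3%), Kcnab2-201 (6.98% and 69.8%) and Kcnab3-201 (2.14% and 52.8%). These genes had 176 and 79, 7 and 109, and 157 and 224 counts in that order. In replicate 2 the deposited posterior share was only 58.4% for Kcnab1-201 and 27.8% for Kcnab2-201. Larger in replicate 1 were those of Akr1d1-201, Akr1e1-201 and, on 3 and 2 counts of its gene, Akr1c19-201.

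**Figure D5:**
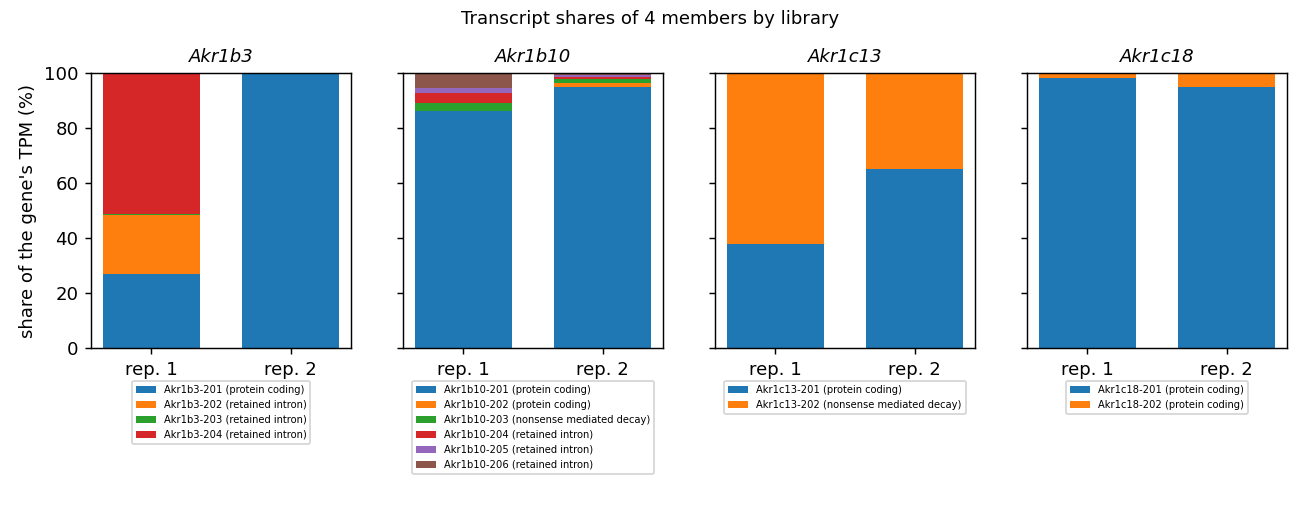
Share of each gene's TPM in percent held by its transcripts in replicate 1 and replicate 2, for 4 members, each bar adding up to the whole gene. For Akr1b3 the coding transcript Akr1b3-201 goes from 27.1% to 99.8%, and for Akr1c13 the leading transcript differs between the libraries.

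The other aldo-keto reductases of the gland were given by a list of 10 genes, which summed to 1035 and 2726 TPM. Of 8 tested, 3 were called higher in replicate 2 and 3 lower (median log2 ratio -0.02, or 0.27 with the GC trend removed). Over all genes tested, 36.4% were called higher and 27.8% lower, or 12.9% and 11.8% with the trend removed. Akr1d1, the steroid 5-beta-reductase, had 481 and 731 TPM, close to the levels of Akr1c18. It was called lower at -1.27 and had a log2 ratio of 0.35 with the trend removed. Akr1cl, the gene closest to Akr1c18 in coding sequence, had 364 and 1156 TPM and was not called at -0.13, but was called higher at 1.06 with the trend removed. Akr1a1, aldehyde reductase, had 165 and 738 TPM and was called higher both ways, at 1.33 and 1.20. Akr7a5, an aldehyde reductase of another family, had 4 and 577 counts and was also called higher both ways, at 6.57 and 2.38. Akr1e1 (19.7 and 43.9 TPM) was called lower at -1.16 and came to 0.19 with the trend removed. Among the potassium channel beta subunits, Kcnab1 went from -1.58 to -0.50 and Kcnab2 from 3.43 to -0.11, both losing their calls, and Kcnab3 went from 0.08 to -1.48 and was then called lower. Akr1c19 had 3 and 2 counts and Akr1c21 had 0 in both libraries.

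Enzymes that handle the same aldehydes, ketones and polyols by other means formed a list of 22 genes. Of 21 tested, 10 were called higher in replicate 2 and 1 lower, against backgrounds of 36.4% and 27.8% of all genes. With the GC trend removed, 7 of the higher calls and 0 of the lower remained, against backgrounds of 12.9% and 11.8%. The median log2 ratio was 0.59 before and 0.42 after removal. The alcohol dehydrogenase Adh1 led it, with 457 and 5271 TPM (log2 ratio 2.03, or 1.47 with the trend removed). The mitochondrial aldehyde dehydrogenase Aldh2 had 4.31 and 763 TPM (5.06 and 2.04). Adh5 had 38.9 and 144 TPM and was not called. Khk, ketohexokinase, had the largest ratio, on 1 and 304 counts (7.23 and 3.49). Aldh1a1, a retinaldehyde dehydrogenase, was the 1 gene called lower, at -1.15, and came to -0.33 with the trend removed.

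Several Akr1 enzymes can form prostaglandin F, and prostaglandin genes formed a list of 17. Of 14 tested, 3 were called higher and 6 lower, against backgrounds of 36.4% and 27.8% of all genes. With the trend removed, 1 call in each direction remained, and 2 were called higher and 2 lower in all. The backgrounds were then 12.9% and 11.8%. The median log2 ratio was -0.74 before and -0.16 after removal. The prostaglandin E synthases differed: Ptges3 had 102 and 90.1 TPM and was called lower at -2.02 (-0.54 with the trend removed), and Ptges2 had 0.78 and 38.2 TPM and was called higher at 4.68 (2.11). Ptgis, prostacyclin synthase, had 0.52 and 20.9 TPM and was called higher at 3.47 (0.05). Hpgd, which inactivates prostaglandins, was lower at -2.05 (-0.21).

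Progesterone, the substrate of Akr1c18, and corticosterone are made by the 10 listed enzymes and carriers, all of them tested. In replicate 2, 5 were called higher and 0 lower, and 4 remained higher with the trend removed (median 1.85 and 0.80). The shares of all genes called were 36.4% higher and 27.8% lower, and 12.9% and 11.8% with the trend removed. Hsd3b1, which makes progesterone, had 2871 and 11133 TPM and Star, which brings cholesterol into mitochondria, 1953 and 5390 TPM, and neither was called. Cyp21a1, the 21-hydroxylase, had 97.0 and 9131 TPM and was called higher at 4.73 (1.44), and Fdxr, which passes electrons to the mitochondrial P450 enzymes, at 5.63 (1.77). Regulators reported for adrenal Akr1 genes numbered 16, with 9 called higher and 3 lower, against the same shares of all genes. With the trend removed, 3 higher and 0 lower calls remained (median 1.75 before and -0.06 after). Another 4 were called lower only with the trend removed: Cebpb went from 0.14 to -6.96, Cebpa from 2.09 to -3.44, Nr0b1 from 0.01 to -2.43 and Keap1 from 2.28 to -1.93, so that Cebpa and Keap1 turned from higher to lower. Their GC content was 67.2%, 62.6%, 55.2% and 59.0% in that order, against a median of 49.985% over all genes tested. These lower calls therefore depend on the trend fitted at high GC, most of all for Cebpb, which had 16.7 and 66.2 TPM. Mrap, the accessory protein of the ACTH receptor, had 10.8 and 563 TPM and was called higher (3.83 and 1.38), whereas the receptor Mc2r had 245 and 351 TPM and was called lower (-1.33 and 0.19). Nr5a1, which encodes SF-1, had 6.61 and 383 TPM and was called higher only before the trend was removed (4.03 and 0.09). Nr1h2, an oxysterol receptor, had the largest ratio (6.59 and 1.80) and Sp3 the lowest (-2.05 and -0.14).

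Marker genes of the cortical zones were measured beside the members. The backgrounds over all genes were 36.4% called higher and 27.8% lower, or 12.9% and 11.8% with the GC trend removed. The 5 fasciculata markers, Akr1b7 among them, had 2 higher calls (Akr1b7 and Mrap) and 1 lower (Mc2r), with Cyp11b1, the 11-beta-hydroxylase, at 1870 and 5203 TPM and not called. The 5 X-zone markers, Akr1c18 among them, had 3 lower calls (Akr1c18, Pik3c2g and Thrb), none of which remained with the GC trend removed. Cyp2f2 and Sbsn were called higher both ways (2.81 and 1.13, and 3.87 and 1.85). The X-zone markers thus did not move together between libraries. Those called lower had 42.5% (Pik3c2g), 43.8% (Akr1c18) and 46.1% GC (Thrb), and those called higher 53.7% (Cyp2f2) and 54.4% (Sbsn).

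Markers of other cells that the sample could hold are given with their calls before and after removal of the GC trend. The backgrounds were 36.4% higher before and 12.9% after. For lower calls they were 27.8% before and 11.8% after. The 8 adipocyte markers summed to 471 TPM in replicate 1 and 3378 TPM in replicate 2, with 4 called higher and 0 lower (6 and 0 with the trend removed, median 1.54 and 1.48) and none at 0. The 6 skeletal muscle markers summed to 23.5 and 358 TPM, with 5 called higher and 0 lower (3 and 0 with the trend removed, median 3.42 and 1.88) and none at 0. The 8 medulla markers summed to 363 and 4539 TPM, with 4 called higher and 1 lower (3 and 2 with the trend removed, median 2.47 and -0.01), and Pnmt at 0 in replicate 1. The 6 glomerulosa markers had 3 called higher and 3 lower (2 and 0 with the trend removed). Both libraries are labelled as 1 biological sample, and whether they share an RNA extraction is not given in the sources used here. The part of these markers in the Akr1b values was not tested. Liver, where Akr1c6 is a known gene, was represented by 8 markers that summed to 112 and 300.1 TPM, of which Cyp2e1 gave 111 and 286 TPM. Alb had 12 and 23 counts. The 8 kidney markers summed to 0.15 and 0.38 TPM with 6 at 0 in both libraries. The 8 ovary markers summed to 1.01 and 12.1 TPM with 3 at 0, and the 6 intestine markers to 0.65 and 5.57 TPM with 2 at 0.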

How the data were processed

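Polyadenylated RNA of 1 adrenal sample was measured in 2 technical libraries (1 group); p-values measure only counting error between these libraries. Expected counts (estimated fragments per gene or transcript), TPM and FPKM are given per the file headers for each library. Posterior mean TPM and its interval bounds in the deposited tables carry no stated level and were treated as a score. Each transcript's deposited share of its gene is in percent. By the notes deposited with the files, reads were placed on mm10 with GENCODE M4; program and version: not given in the sources used here. FPKM served only as an alternative for detection.

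Expected counts were rounded. Genes with 20 or more counts over both libraries were scaled with TMM (edgeR 4.0.16, R 4.3.3) and tested with an exact binomial test, Benjamini-Hochberg adjusted over 14358 genes, called at 0.05 with a fold of at least 2. Log2 ratios used a prior count of 0.5, exact (Clopper-Pearson) intervals 95%, and the floor 3 counts, all for counting error only. The GC trend was a lowess fit (span 0.3, statsmodels 0.14.6). DESeq2 1.42.0 size factors were an alternative. The comparison was tried on simulated counts in which nearly all genes were unchanged. Most changed genes were called, with 0 of 14319 unchanged genes, or 1 of 14478 with a simulated GC trend removed. The real libraries differed over far more genes, so the simulation cannot show how well the calls hold here. GC content, coordinates, exons and sequences came from GENCODE M21 and RefSeq on GRCm38, the assembly also called mm10; similarity from BLAST 2.17.0 and Biopython 1.88. Mitochondrial copies were 15 nuclear genes with at least 90% identity over at least 50% of a transcript. Protein sequences were not used here; identity was taken from coding sequences instead.

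Named were all members, the other aldo-keto reductases, all genes between the outermost members of a cluster, the 3 genes with the highest mean TPM and the called gene with the largest ratio in each direction of each other list, and transcripts with at least 10% of a member. Others named were chosen after their values were seen. Members and lists were chosen with earlier results of these data known.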

Additional observations from a re-analysis of the deposited data

How the results depend on the processing

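The count of members called lower in replicate 2 (3) came to 0 under total counts, under removal of the GC trend and under removal of GC and length trends, and to 1 under total counts over nuclear genes, a summed count of at least 100 or a 4-fold minimum. The count called lower came to 4 with the length trend removed or no fold minimum. With Akr1b8 and Akr1b10, and Akr1c12 and Akr1c13, each summed as 1 gene, the count called lower was 2. The count called higher (3) came to 1 under a 4-fold minimum or with the length trend removed, and to 2 with GC and length trends removed. Under total counts, total counts over nuclear genes or no fold minimum, the count called higher was 4. Log2 ratios turned direction for Akr1c13 (0.50 under total counts, 0.44 with GC removed, 0.0058 with GC and length removed), Akr1c18 (0.069 under total counts, 0.24 with GC removed) and Akr1b10 (-0.25 with length removed). Total counts moved the median of all genes by 1.14 on the log2 scale (7769 higher, 567 lower, against 5232 and 3987), total counts over nuclear genes by 0.28 (5795 and 2978) and removal of the length trend by -0.34 (4464 and 4849). Removal of the GC trend left 1852 higher and 1695 lower, and no fold minimum gave 6590 and 6002. Summed as 1 gene, Akr1c12 and Akr1c13 gave -0.66 (not called) and Akr1b8 and Akr1b10 1.43 (called). DESeq2 size factors, posterior mean counts and the lack of a count filter each left both counts of called members at 3. Detection in both libraries ran from 5 at 10 TPM to 9 at 0.1 TPM. Members at 1 TPM or more numbered 6 in replicate 1 alone and 6 in replicate 2 alone. Such a count cannot fall below that of both libraries, so it does not check it. Leaving out a replicate left no comparison of the libraries, and no paired analysis was possible because there is 1 group. Depth limits Akr1c6, Akr1c12, Akr1c14 and Akr1c20; apart from what each alternative removes by construction, the cause of these changes was not tested.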
